A study of Mus musculus with 14 samples.

Results

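Heat shock genes, 10 in all, were followed in RNA from the RPE, the retinal pigment epithelium, which lies behind the photoreceptors and serves them. They were chosen by name: the heat shock factor Hsf1, the cytosolic chaperones Hspa1a, Hspa1b, Hspa8, Hsp90aa1, Hspb1, Dnajb1, Hsph1 and Bag3, and the mitochondrial chaperonin Hspd1. They are 10 of 34452 mouse genes in the table, and all 10 were among the 16289 genes with enough counts to be tested. The mice were rd1 at postnatal day 20, whose Pde6b mutation kills the rods early in life. All eyes received AAV-Best1-GFP, and in each of 7 mice 1 eye also received AAV-Best1-Nrf2, which drives human Nrf2 from the human Best1 promoter, a promoter used to confine expression to the RPE. The eyes with both vectors are called Nrf2 eyes and those with GFP alone control eyes. By the study's methods the capsids of the Nrf2 and GFP vectors differed, and the transgene and the added vector cannot be told apart.

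Cells under proteotoxic stress release Hsf1 from chaperones in the cytosol. Hsf1 then binds heat shock elements, inverted repeats of GAA, and raises the inducible chaperones, above all the Hsp70 genes Hspa1a and Hspa1b. Nrf2 is the transcription factor of the oxidative stress response, acts through antioxidant response elements, and is a separate pathway that shares some stimuli with Hsf1. The comparison asks where the heat shock genes stood in eyes given the Nrf2 vector, beside eyes given GFP alone.

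The promoters of Hspa1a, Hspa1b and Hspb1 are shown because these are the members that varied most between eyes. Each line gives the 250 bases before the RefSeq gene start (build GRCm38.p6), written 5′ to 3′ on the gene's strand, with matches to GAANNTTC in capitals. They span chr17:34972157-34972406 on the minus strand, chr17:34959239-34959488 on the minus strand and chr5:135887669-135887918 on the plus strand.
Hspa1a: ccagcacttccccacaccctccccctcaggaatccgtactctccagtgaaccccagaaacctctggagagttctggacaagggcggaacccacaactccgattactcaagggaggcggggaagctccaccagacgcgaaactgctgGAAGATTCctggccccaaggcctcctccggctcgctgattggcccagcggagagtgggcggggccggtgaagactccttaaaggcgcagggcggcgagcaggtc
Hspa1b: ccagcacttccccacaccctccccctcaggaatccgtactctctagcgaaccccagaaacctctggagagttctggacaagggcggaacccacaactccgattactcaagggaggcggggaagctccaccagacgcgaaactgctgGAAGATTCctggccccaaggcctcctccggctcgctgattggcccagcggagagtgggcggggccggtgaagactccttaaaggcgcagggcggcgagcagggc
Hspb1: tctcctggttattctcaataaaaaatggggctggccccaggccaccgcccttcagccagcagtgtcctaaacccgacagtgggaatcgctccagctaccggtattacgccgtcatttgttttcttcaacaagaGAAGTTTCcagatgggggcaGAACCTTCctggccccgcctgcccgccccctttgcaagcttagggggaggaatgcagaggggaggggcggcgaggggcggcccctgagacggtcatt
The match begins 104 bases before the start in Hspa1a and in Hspa1b, and the 2 matches in Hspb1 begin 117 and 97 bases before it. The Hspa1a and Hspa1b windows share the same base at 247 of 250 positions (98.8%). A window with GAANNTTC on either strand was found for 6.69% of 32851 promoters. Promoters were listed for 7 of the 10 members, with 10 windows, and 4 members held the letters. Hspd1 was the member in which GAANNTTC was followed after 2 bases by another GAA, a form that 0.466% of promoters hold on either strand. That stretch, on the minus strand at chr1:55088051-55088079, lies in an exon of Hspd1 and is shown with the 3 units in capitals.
Hspd1: gccttccgGAAGGTTCTAGAAcggaccgt
The core of the antioxidant response element, TGACNNNGC, was in the windows of Dnajb1 and Hsph1 and in 10.2% of all promoters. Hspa1a, Hspa1b, Hspb1, Bag3 and Hspd1 lacked those letters in these windows. A match describes the letters and is no evidence of binding.

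Total counts ran from 16548349 to 50543008 per library, and each member had at least 525 counts in every library. Values are given in counts scaled to a common library total (CPM), and log2 differences also carry TMM scaling, which moved a mouse's Nrf2-minus-control difference by -0.06 to 0.35. The RPE label was checked on 14 RPE genes, which summed to 20561 to 32925 CPM in Nrf2 eyes and 15875 to 37673 CPM in control eyes, with 0 of the 14 at 0 in any library. The sum does not show single genes. Looked at after the values were seen, Rpe65 was lower in 7 of 7 mice (log2 -2.17, adjusted p 0.0198). Ttr was higher in 6 of 7 (1.58, adjusted p 0.10), and of the 14 genes 8 lay above 0 and 6 below. Transcripts of surface epithelium, given below, summed to as much as 62174 CPM in a control library. Their median sum was 27272 CPM in control and 9028 CPM in Nrf2 eyes, beside 24711 and 24184.5 CPM for the RPE genes. The libraries thus did not hold RPE transcripts alone. Nrf2 targets rose in 7 of 7 mice, Hmox1 by 4.30 (log2, SE 0.56, adjusted p 0.0101) and Nqo1 by 2.05 (SE 0.26, adjusted p 0.00982). Vector NFE2L2 was 7.36 higher on the log2 scale (SE 1.74, unadjusted p 0.00242). Apart from control 3, control libraries held from 1.12 CPM of it (control 1) to 175 CPM (control 5). The library labelled control 3 held as much of it (1163 CPM) as the library labelled Nrf2 4 (1163 CPM). These libraries were the closest of the 91 pairs, with a median absolute log2 difference of 0.117 where the next pair had 0.201, and no member differed between them by more than 0.16 (log2). Fold changes of the members, and how many members and other chaperones were called, are therefore also given without mice 3 and 4. The relations to the lists below and the values of the marker lists are not.

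Of the 10 members, 0 passed the threshold (adjusted p under 0.05, edgeR with mouse as a term), which 3.43% of the 16289 tested genes did. At an unadjusted p under 0.05 there was 1 member, Hsf1, where 18.1% of all tested genes reached that level. DESeq2 called 0 members (11.9% of all genes), voom with quality weights called Bag3 (15.9%), and the fit without pairing called Hsf1 (6.75%). Of the 10, 7 members lay below 0 and 3 above, where 54.8% of all tested genes lay below 0. Their median log2 fold change was -0.20 beside -0.04 over all tested genes. With mice 3 and 4 left out, 0 members were called (4.59% of all genes).

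Hsf1, the master regulator of the group (ENSMUSG00000022556, chromosome 15, 76477422 to 76501913, GRCm38), had low and even counts. It ranged from 30.4 to 38.2 CPM in Nrf2 eyes (median 33.6) and from 39.5 to 62.0 CPM in control eyes (median 46.5). Every Nrf2 library was thus below every control library on the CPM scale, a separation in this direction that 0.755% of tested genes showed, but the groups overlapped after TMM scaling. Its log2 fold change was -0.35 (SE 0.11, 95% interval -0.59 to -0.11), and its adjusted p was 0.13 (unadjusted 0.00986). It was lower in 7 of 7 mice by 0.17 to 0.78, as 2.92% of tested genes were in every mouse. Without the mouse term the adjusted p was 0.0436 at -0.35. Leaving out mice 3 and 4 gave -0.34 (adjusted p 0.21).

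Hspa1a and Hspa1b encode the inducible cytosolic Hsp70 and lie side by side on chromosome 17 (ENSMUSG00000091971, 34969190 to 34972156, and ENSMUSG00000090877, 34956436 to 34959238). In Nrf2 libraries 1 to 7 Hspa1b stood at 78.6, 142.5, 183, 486, 510, 147 and 58.5 CPM. Its values in the control eyes of the same mice were 203, 459.5, 478, 66.5, 697, 1051 and 277 CPM. The control eye was the higher one in 6 mice, whereas in mouse 4 the Nrf2 eye held the more, and the groups overlapped widely. Hspa1a ran in parallel, from 23.4 to 216 CPM in Nrf2 eyes (median 60.0) and from 28.3 to 415 CPM in control eyes (median 169). The log2 fold change was -1.07 for Hspa1b (SE 0.63, 95% interval -2.50 to 0.36, adjusted p 0.41) and -1.004 for Hspa1a (SE 0.62, interval -2.42 to 0.41, adjusted p 0.43). Neither differed beyond the spread between mice.

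Leaving out mouse 4 alone changed the call. The differences in mouse 4 were 3.04 for Hspa1b and 3.10 for Hspa1a (log2), against -2.86 to -0.29 and -2.85 to -0.33 in the other 6 mice. The Nrf2 library of mouse 4 is the one that closely resembled control 3, and its vector level of 1163 CPM was below the 4577 to 8711 CPM of the other Nrf2 eyes. The difference in mouse 4 therefore involves a library whose label is in doubt. It also involves control 4, the lowest control library for both genes, with 66.5 CPM of Hspa1b and 28.3 CPM of Hspa1a. Without mouse 4 both passed, Hspa1b at -1.54 (SE 0.32, adjusted p 0.0223) and Hspa1a at -1.47 (SE 0.31, adjusted p 0.0230), in a fit that called 12.6% of 16318 genes. Without mice 3 and 4 the values were -1.62 (adjusted p 0.0587) and -1.53 (adjusted p 0.0622).

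The 2 genes are near-identical copies, and 63.8% of the 31-base words of Hspa1a transcripts also occur in Hspa1b. Estimated counts divide such reads by a model, so the split between the copies is uncertain. Hspa1b counts were 2.25 to 2.72 times those of Hspa1a in the 14 libraries (median 2.45), and the summed pair gave a log2 fold change of -1.05 (adjusted p 0.41).

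Hspb1 and Dnajb1 varied with them. Hspb1, the small heat shock protein Hsp27, which holds unfolded proteins and binds actin (chromosome 5, 135887919 to 135889563), ranged from 55.0 to 245 CPM in Nrf2 eyes (median 150) and from 33.3 to 544 CPM in control eyes (median 215). Dnajb1, the Hsp40 partner that stimulates the Hsp70 ATPase (chromosome 8, 83608193 to 83612653), ranged from 61.6 to 109 CPM in Nrf2 eyes (median 75.0) and from 69.9 to 190 CPM in control eyes (median 109). Both were lower in the Nrf2 eye of 6 mice, as 19.7% of tested genes were in at least 6, and higher in that of mouse 4, by 3.05 (Hspb1) and 0.81 (Dnajb1) on the log2 scale. Their log2 fold changes were -0.55 for Hspb1 (SE 0.56, adjusted p 0.63) and -0.36 for Dnajb1 (SE 0.22, adjusted p 0.43). Without mouse 4 they were -0.99 (adjusted p 0.0703) and -0.55 (adjusted p 0.0672), and without mouse 6 they were -0.21 and -0.21.

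**Figure D1:**
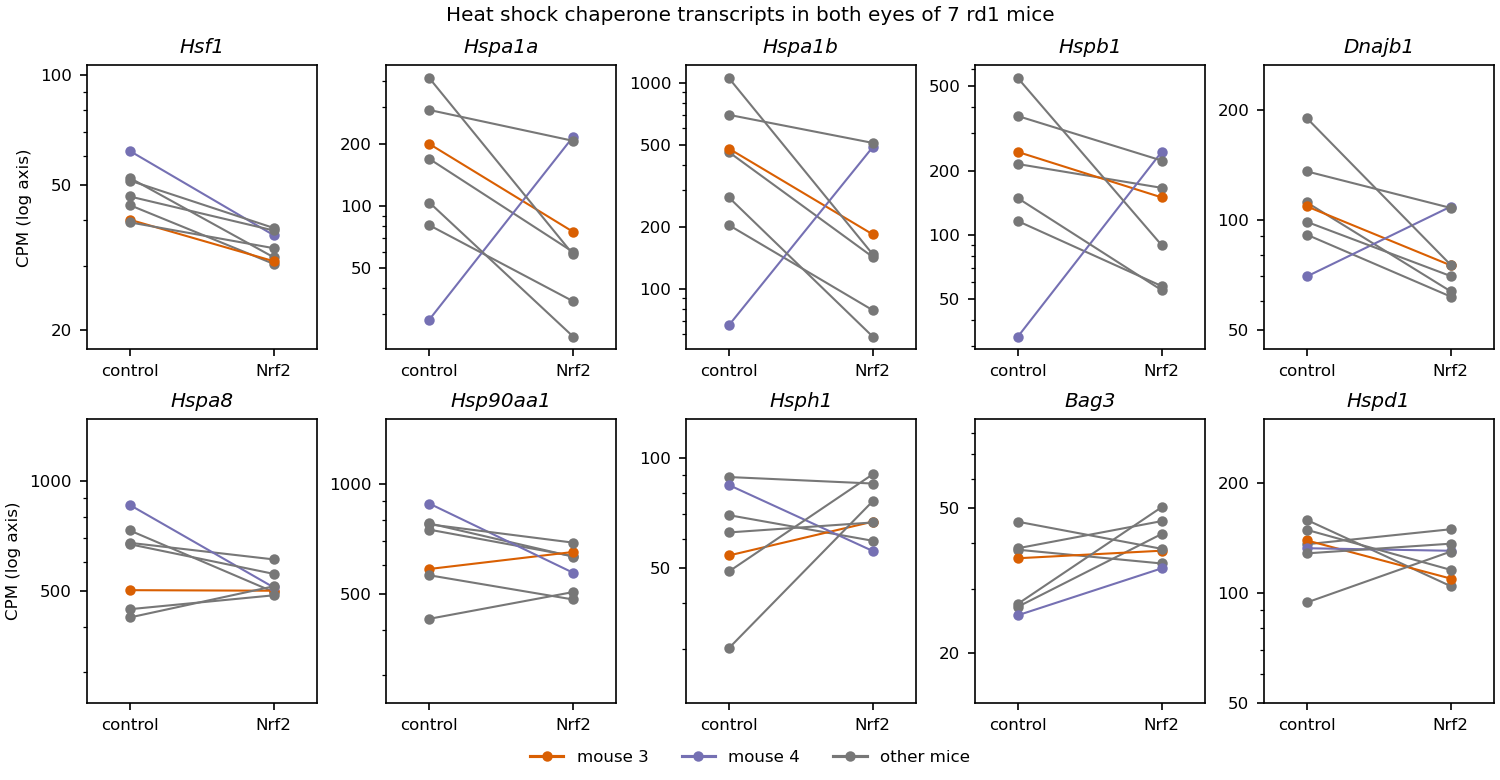
CPM of each member in the control and the Nrf2 eye on a log axis, with 1 line per mouse. Lines of Hspa1a, Hspa1b, Hspb1 and Dnajb1 run down in 6 mice and up in mouse 4, Hsf1 runs down in all 7, and Hspa8, Hsp90aa1 and Hspd1 show no common direction.

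Hspa8 and Hsp90aa1 stayed closer together. Hspa8, the housekeeping Hsc70 (chromosome 9, 40800984 to 40810087), ranged from 487.5 to 611 CPM in Nrf2 eyes (median 513) and from 424 to 862 CPM in control eyes (median 673). Hsp90aa1, the stress-responsive Hsp90 that folds kinases and steroid receptors and holds Hsf1 inactive (chromosome 12, 110690605 to 110702728), ranged from 484 to 692 CPM (median 633.5) and from 428 to 885 CPM (median 751). Control libraries lay on both sides of the Nrf2 libraries for both genes. The log2 fold changes were -0.06 for Hspa8 (95% interval -0.37 to 0.26, adjusted p 0.86) and -0.04 for Hsp90aa1 (interval -0.36 to 0.29, adjusted p 0.92). Within those intervals a change of either sign remains possible.

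Hsph1 and Bag3 lay above 0. Hsph1, the Hsp110 nucleotide exchange factor of Hsp70 (chromosome 5, 149614287 to 149636376), ranged from 55.6 to 90.1 CPM in Nrf2 eyes (median 66.9) and from 30.1 to 88.6 CPM in control eyes (median 62.5). It was higher in 5 of 7 mice, the most in mouse 6 (1.31, log2) and mouse 7 (0.99), and its log2 fold change came to 0.38 (SE 0.21, adjusted p 0.39). Without mouse 6 it was 0.21 (adjusted p 0.62). Bag3, the co-chaperone that routes Hsp70 clients to autophagy (chromosome 7, 128523616 to 128546981), ranged from 34.1 to 50.2 CPM (median 38.6) and from 25.4 to 45.8 CPM (median 36.3). It was higher in 5 of 7 mice, in mouse 4 too (0.60), and its log2 fold change came to 0.40 (SE 0.18, 95% interval -0.0047 to 0.81, adjusted p 0.28). Under voom it stood at 0.51 with an adjusted p of 0.0457. Hsph1 and Bag3 overlapped between the groups.

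Hspd1, the mitochondrial Hsp60 that folds matrix proteins (chromosome 1, 55077835 to 55088243), was the steadiest member. It ranged from 104.5 to 149.5 CPM in Nrf2 eyes (median 130) and from 94.2 to 158.5 CPM in control eyes (median 136). Its log2 fold change was 0.04 (SE 0.11, 95% interval -0.20 to 0.28, adjusted p 0.89), with 4 mice higher and 3 lower.

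Without mice 3 and 4 the log2 fold change was -1.10 for Hspb1 (adjusted p 0.12) and -0.60 for Dnajb1 (adjusted p 0.14). In the same 5 mice it was -0.0082 for Hspa8, -0.03 for Hsp90aa1, 0.51 for Hsph1, 0.39 for Bag3 and 0.05 for Hspd1, with adjusted p from 0.28 to 0.98.

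**Figure D2:**
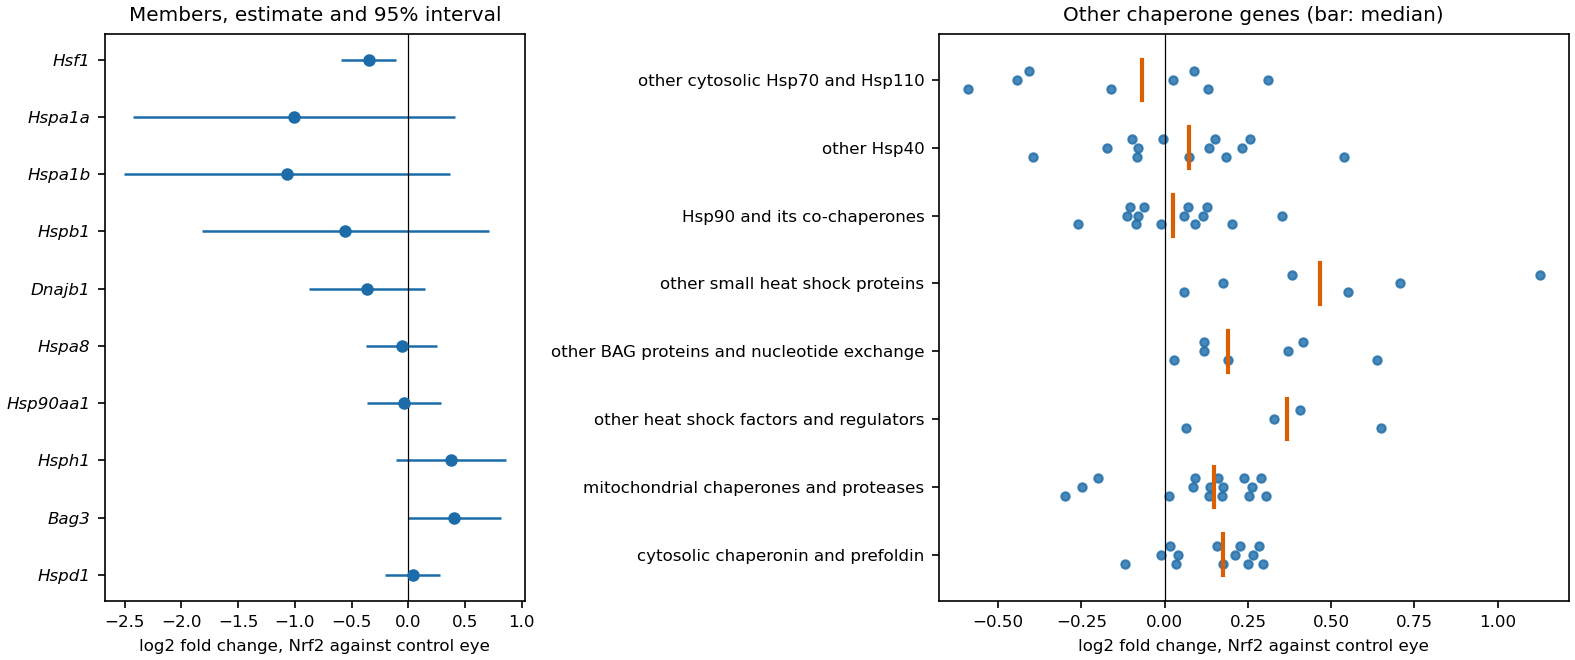
Left, the log2 fold change of each member with its 95% interval; right, log2 fold changes of the 81 other chaperone genes tested, 1 point per gene by list, with the median as a bar. The interval of Hsf1 lies below 0 and those of Hspa1a, Hspa1b and Hspb1 are the widest, whereas 74 of the 81 other genes lie within 0.5 of 0.

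The members differed most in how far they varied. Over the 14 libraries the highest value was 17.96 times the lowest in Hspa1b, 17.7 times in Hspa1a and 16.3 times in Hspb1. It was 3.08 times in Dnajb1, 2.99 times in Hsph1 and between 1.68 and 2.07 times in the 5 others. The SD of log2 CPM exceeded that of 88.2% of tested genes in Hspa1b and that of 3.73% in Hspd1, with the other members between them.

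Levels between genes were compared per length, as CPM per kilobase of the median transcript. They are levels of whole libraries, surface epithelium transcripts included. Hspa8 had the highest mean over all eyes, 259 ± 56.2 (SD, n = 14), and was above Hsp90aa1 (208 ± 41.9) in 14 of 14 libraries, but Hspb1 was above Hspa8 in 5 of them and Hspa1b in 2. Hsp90aa1 was above Hspb1 (207 ± 149) in 9 libraries, so these neighbours did not differ beyond their spread. Hspb1 was above Hspa1b (123 ± 102) in all 14. Hspa1b, Hspd1 (53.5 ± 7.49), Hspa1a (47.2 ± 38.8) and Dnajb1 (33.4 ± 11.8) did not part beyond their spread, each being above the next in 9, 8 and 7 libraries. Hsph1 (20.99 ± 5.34), Hsf1 (19.7 ± 4.44) and Bag3 (14.6 ± 2.89) were lowest. Hspb1 and Hspa1b changed places with Hspa8 between eyes. In control 6 Hspb1 stood at 594 and Hspa1b at 375 CPM per kilobase, above Hspa8 at 192, whereas in control 4 they stood at 36.4 and 23.7, below Hspa8 at 391.

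Markers of another tissue moved with Hspa1a and Hspa1b, and less closely with Hspb1 and Dnajb1. A list of 18 genes of surface epithelium, such as the cornea keratin Krt12 and the basal keratin Krt5, was put together after the values had been seen. It is therefore given without a test. Its summed level ran from 2850 to 26076 CPM in Nrf2 eyes (median 9028) and from 2831 to 62174 CPM in control eyes (median 27272), and 0 of the 18 genes were at 0 in any library. All 18 had a log2 fold change below 0 (median -1.23), as 54.8% of all tested genes had. The list was lower in the Nrf2 eye of 6 mice and higher in that of mouse 4, the same mice as for Hspa1a and Hspa1b. In bulk RNA, fewer cells of a type and less RNA per cell cannot be told apart.

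Across the 7 mice, the Nrf2-minus-control difference of the list went with that of Hspa1b with a Pearson r of 0.996 (Spearman 1) and of Hspa1a with 0.996 (Spearman 1). It was 0.957 for Hspb1 (Spearman 0.68), 0.894 for Dnajb1 (0.96) and -0.72 for Hsph1 (-0.79). Without mice 4 and 6, the 2 farthest from the median, r was 0.988 for Hspa1b, 0.993 for Hspa1a, 0.63 for Hspb1, 0.52 for Dnajb1 and -0.38 for Hsph1. In those 5 mice it was 0.65 for Hspa8, 0.66 for Hsp90aa1 and -0.85 for Hspd1, so there Hspb1 and Dnajb1 did not stand apart from Hspa8 and Hsp90aa1. Within the control eyes alone Hspa1b and the list had an r of 0.989, and within the Nrf2 eyes one of 0.992 (n = 7 each). The same values were 0.992 and 0.907 for Hspb1, 0.927 and 0.823 for Dnajb1 and 0.88 and -0.36 for Bag3. They were -0.79 and -0.84 for Hspa8 and -0.57 and -0.60 for Hsp90aa1. Without the 2 libraries of each group farthest from its median on the list, Hspb1 had 0.987 and 0.83 and Dnajb1 0.989 and 0.18. With the mean of the list as a further term in the fit, the log2 fold change was 0.01 for Hspa1b and 0.07 for Hspa1a. The list was put together with the values in view, and their differences ran with it across mice, so these values are no separate evidence.

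**Figure D3:**
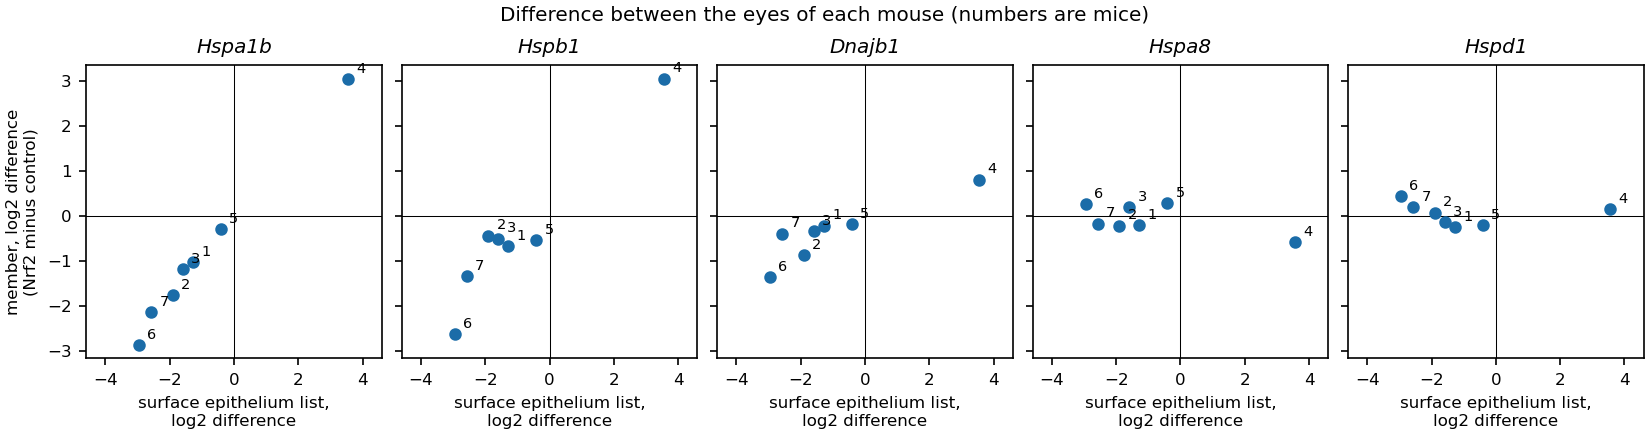
Difference between the eyes of each mouse (Nrf2 minus control, log2) for 5 members against the same difference for the mean of 18 surface epithelium genes, with the mouse number at each point. Hspa1b follows the list over the whole range from mouse 6 to mouse 4, Hspb1 and Dnajb1 follow it less closely, and Hspa8 and Hspd1 do not rise with it.

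Immediate early genes, which are induced within minutes of stress and handling, showed a like pattern. Of 12 such genes 11 lay below 0 (median -1.10), where 54.8% of all tested genes did. Egr1 passed at -1.36 (SE 0.27, adjusted p 0.0348, lower in 7 of 7 mice). The list was lower in the Nrf2 eye of 6 mice and higher in that of mouse 4. In an exact two-sided permutation test over 7 mice, adjusted over 10 members, its difference went with that of Hspa1b (r = 0.98, p 0.00139, adjusted p 0.00661; Spearman 0.89, p 0.0123, adjusted p 0.0615). Without mice 4 and 6 that r was 0.82, beside 0.76 for Hspa8. For Hspb1 r was 0.99 (p 0.00198, adjusted p 0.00661) with 0.75 without those mice, where Hspa8 had 0.76. For Dnajb1 r was 0.91 (p 0.0113, adjusted p 0.0283) and 0.15 without those mice, so it rested on them. Hsph1 went the other way, with an r of -0.80 (p 0.0175, adjusted p 0.0349) and -0.53 without those mice. By Spearman's rho no member passed, with an adjusted p of 0.0615 for Hspa1a and Hspa1b and 0.0683 for Hspb1, Dnajb1 and Hsph1. The permutation p-values take the 7 mice as independent, although control 3 and Nrf2 4 were the closest pair of libraries. The share of all tested genes that went with the list as closely is not given. These p-values therefore do not set the members apart from other genes. Hspa1a and Hspa1b share reads and are not separate results, and the list was chosen with earlier results of these data known. The part of either list in the levels of the members was not tested beyond these values.

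**Figure D4:**
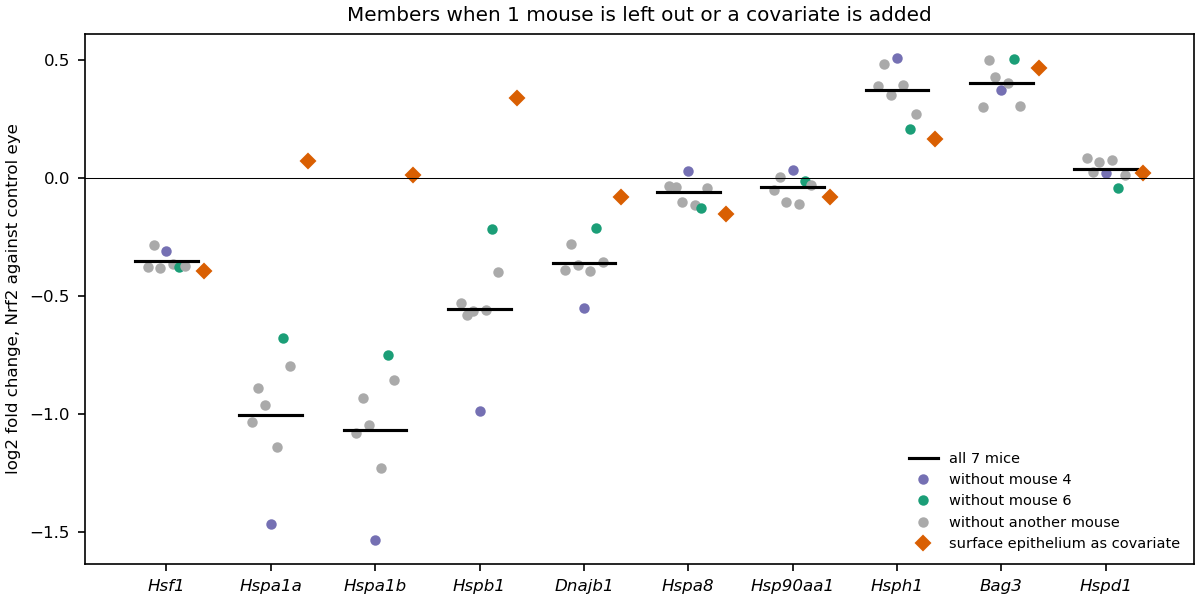
Log2 fold change of each member with all 7 mice (line), with 1 mouse left out (points) and with the surface epithelium list as a further term (diamonds). Hspa1a and Hspa1b lie near -1.5 without mouse 4 and near 0 with the list as a term. That list was put together after the values had been seen.

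The rest of the chaperone network was compared through 8 lists with 85 genes, of which 81 were tested. Of these 0 passed in edgeR, and 18 (22.2%) were at an unadjusted p under 0.05, 15 higher and 3 lower, beside 18.1% of all genes. DESeq2 called 7 of the 81, where 11.9% of all genes passed, and voom 18, where 15.9% did. Their median log2 fold change was 0.13, with 59 genes above 0 (72.8%, beside 45.2% of all tested genes) and 22 below, and 74 lay within 0.5 of 0. These lists leave out the members, of which Hsf1 (-0.35) and Hspb1 (-0.55) lay below 0. All 6 other small heat shock proteins tested (median 0.47) lay above 0. So did all 7 other BAG and nucleotide exchange genes (0.19) and all 4 other heat shock factors and regulators tested (0.37). The median was 0.18 for the chaperonin and prefoldin list (11 of 13 above 0), 0.15 for mitochondrial chaperones and proteases (13 of 16), 0.07 for Hsp40 (7 of 13), 0.02 for Hsp90 and its co-chaperones (7 of 14) and -0.07 for Hsp70 and Hsp110 (4 of 8).

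Among them, the small heat shock protein Hspb8, a partner of Bag3, averaged 92.6 ± 29.3 CPM in Nrf2 and 61.9 ± 18.03 CPM in control eyes (SD, n = 7; log2 fold change 0.71, adjusted p 0.14, higher in 6 of 7 mice). Cryab, the alpha B crystallin, had 623 ± 106 and 540 ± 164 CPM (0.38, adjusted p 0.36). Bag1, an Hsp70 exchange factor, had 160 ± 17.3 and 135 ± 12.4 CPM (0.37, adjusted p 0.13), with 7 of 7 mice higher. These 3 values lie above 0 without passing. Hspe1, the Hsp10 partner of Hspd1, changed by 0.25 (adjusted p 0.30), the mitochondrial Hsp70 Hspa9 by 0.17 (adjusted p 0.41), Trap1 by 0.17 (adjusted p 0.39) and the protease Lonp1 by 0.09 (adjusted p 0.59). The cytosolic partners stayed as near to 0, with Hsp90ab1 at 0.13, Hspa4 at 0.13, Ahsa1 at 0.09, Chordc1 at -0.01, Dnaja1 at -0.01, Stip1 at -0.06, Hspa4l at -0.16 and the factor Hsf2 at 0.06 (adjusted p 0.56 to 0.99). Named after their values were seen, the 3 smallest adjusted p-values were those of Sil1, an exchange factor of the endoplasmic reticulum (0.64, adjusted p 0.0569), Dnajc7 (-0.39, adjusted p 0.0752, lower in 7 of 7 mice) and Dnajb4 (0.54, adjusted p 0.0841).

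The genes whose log2 CPM ran most like that of Hsph1 over the 14 libraries were Zfp521 (r = 0.938), Cyp2d22, Gabarapl1, Rusc2 and Tmem184c (0.908). For Hspd1 they were Mfsd4b1 (0.898), H60b, Gpc4, Nt5c3b and Mef2c (0.884). For Hspa1b, looked up after its values were seen, they were Hspa1a (0.998), Galnt18, Anxa8, Fam83h and Zfp750 (0.994). These values describe libraries that share depth and tissue makeup.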

How the data were processed

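RPE RNA was collected from the supernatant of the eyecup, amplified with a low-input kit and sequenced in 2 runs, and no label ties a library to a run. The deposited table gives whole-number estimated counts for each gene, which the authors did not normalize between libraries. The study's methods name mm10 and Ensembl release 91, and the submitters' processing notes name Salmon 0.9.1 and FastQC. Its columns were matched to the 14 labelled libraries, with 0 columns unmatched. Pairing comes from the replicate number that a treated and a control library share in their labels, read with the study's paired design. The paper counts fewer paired replicates at this age than the 7 pairs in the labels, and does not say which was left out. The correlation of the deviations of both eyes from their group means ran from -0.31 to 0.30 in the 7 mice. Counts were scaled to CPM, and those of the vector (human NFE2L2) stayed in the library totals but out of the test.

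Genes were tested in R 4.3.3 by quasi-likelihood with edgeR 4.0.16, modelling mouse plus treatment, with TMM scaling, filterByExpr by group (minimum count 10) and Benjamini-Hochberg adjustment over 16289 genes. All adjusted p-values are from it unless another tool is named, and standard errors (SE) were derived from its F statistic. The fit has 6 residual and 2.68 prior degrees of freedom. Log2 CPM used a prior count of 2. Depths leave counting error small beside the spread between mice. Of the table's mouse genes, 34401 matched GENCODE M21 (GRCm38), which gave positions and lengths. The script was tested on simulated data.

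Members and lists were chosen with earlier results of these data known. Named were the 10 members, 15 further chaperones set by name, any chaperone past the threshold, Hmox1, Nqo1 and the vector, and the 5 genes most correlated with Hsph1 and with Hspd1. Genes outside this rule are marked. The surface epithelium list and the covariate made from it were added later, with the values in view. Alternatives were no mouse term, RLE and upper-quartile scaling, DESeq2 1.42.0, voom with quality weights (limma 3.58.1), other filters and thresholds, the summed Hspa1a and Hspa1b counts, each mouse left out, and mice 3 and 4 left out. Promoters came from RefSeq (GRCm38.p6).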

Additional observations from a re-analysis of the deposited data

How the results depend on the processing

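Of 162 alternative values of single members, 148 kept their direction and their side of the threshold, 4 newly passed, 0 stopped passing and 10 changed sign. Those 10 were Hspa1a (0.071), Hspa1b (0.012) and Hspb1 (0.34) with the surface epithelium covariate, Hspa8 (0.054), Hsp90aa1 (0.14) and Hspd1 (-0.045) under voom, Hspa8 and Hsp90aa1 without mouse 4, Hsp90aa1 without mouse 2 and Hspd1 without mouse 6. With 1 mouse left out Hspa8 ran from -0.12 to 0.029, Hsp90aa1 from -0.11 to 0.036 and Hspd1 from -0.042 to 0.085. Members called numbered 1 without the replicate block (Hsf1), 1 under voom (Bag3) and 0 to 2 with 1 mouse left out, the 2 being Hspa1a and Hspa1b without mouse 4. Other chaperones called numbered 4 without the block, 7 with DESeq2, 18 with voom, 3 at an adjusted p under 0.10, 3 without mice 3 and 4 and 0 to 8 with 1 mouse left out. All differing genes, 559, became 1100 without the block, 1943 with DESeq2, 2594 with voom, 347 with no filter, 331 with the covariate, 56 at an adjusted p under 0.01, 1030 at one under 0.10 and 111 to 2052 with 1 mouse left out, the 2052 without mouse 4. The causes were not tested. The pairing changed no other call of a member. With 7 mice the intervals of Hspa1a, Hspa1b and Hspb1 span more than 2 log2 units, and depth did not limit any member.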

Other observations

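The other marker lists gave these values, with no explanation tested. In Nrf2 eyes 9 of 9 cone genes (median log2 fold change -2.35, 2 past the threshold), 11 of 11 rod genes (-1.86, 0 past it) and 11 of 12 genes of inner retina and glia (-1.07, 0 past it) lay below 0. Of all tested genes 54.8% did. Median values were 0.05 for RPE (1 past the threshold, lower), -0.21 for endothelium, 0.33 for fibroblasts, -0.33 for skeletal muscle, 1.15 for immune cells, -0.76 for blood and 0.12 for lens, with 0 genes past the threshold in the last 6. Summed lens transcripts varied the most, from 49.2 to 5493 CPM in Nrf2 eyes and from 235 to 5900 CPM in control eyes.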
